A study of Mus musculus with 12 samples.

Results

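Macrophages were found among tumor cells that had been selected with CD4 and CD8 beads. They were taken as cells with at least 200 detected genes, at least 3 unique molecular identifiers (UMIs) of *C1qa*, at least 1 UMI of *Csf1r*, and no UMI of *Cd3e* or *Cd8a*. This gate held 827 of the 22806 CD4/CD8-selected cells (3.63%, exact 95% confidence interval [CI] 3.39%–3.88%), among 34445 cells of both selections. The same gate held 6269 of the 11639 CD11c-selected cells (53.9%), which served as the comparison. The gate used *C1qa*, *Csf1r*, *Cd3e*, and *Cd8a*, so their levels are a description of it.

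The cells came from breast tumors of MMTV-PyMT mice, in which the polyoma middle T oncogene is driven in the mammary epithelium and tumors arise spontaneously. PyMT-PAR2WT mice carry the wild-type protease-activated receptor 2, and PyMT-PAR2G37I mice carry the PAR2 G37I mutant. Neither genotype received a further treatment. CD11c-selected cells were from late-stage tumors and CD4/CD8-selected cells from mid-size tumors, with 3 samples per genotype and selection (12 samples). Cells were frozen and thawed before capture, and the samples are titled as CD11c+ cells or as T cells. The 2 selections were also separate samples. Bead selection, tumor stage, and the preparation of samples and libraries therefore cannot be told apart in any difference between the selections given here. Each of the 2 deposited matrices pools its 6 samples with no map from cells to samples, so each counted as a single sample. Genotypes were not compared, p-values are not given, and intervals cover counting error only.

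Macrophages take up and digest dying cells, debris, and red cell heme, and they display peptides on MHC class II to CD4 T cells. Those of tumors derive from blood monocytes that enter through the chemokine receptor CCR2 or from cells resident in the tissue, among them LYVE1-bearing perivascular macrophages. GPNMB, SPP1, and lipid transport genes mark lipid-associated macrophages. CD4 is best known as the coreceptor of helper T cells but is also made by some mouse macrophages, whereas CD11c, encoded by *Itgax*, is an integrin of macrophages and DCs.

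The barcodes of each matrix ran through the alphabet 6 times, and each such stretch is called a barcode run. Which sample or genotype a run holds is not known here. The 6 runs of CD4/CD8-selected cells held 31, 129, 426, 91, 78, and 72 of the gated cells, which were 0.599%, 5.5%, 12.6%, 2.60%, 2.31%, and 1.43% of their cells. The CD11c-selected runs held from 266 to 1584 gated cells, or 43.5% to 73.9%. Run 3 of the CD4/CD8-selected cells thus gave 51.5% of the gated cells and 68.1% of their UMIs. Its gated cells had a median of 25310 UMIs, whereas the medians of the other 5 runs lay between 8115 and 14810. In the CD11c-selected runs, medians lay between 8311 and 30837, the highest in run 4. Summed UMIs of gated cells were 304345 to 10824245 per CD4/CD8-selected run and 9152061 to 17402569 per CD11c-selected run.

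**Figure D1:**
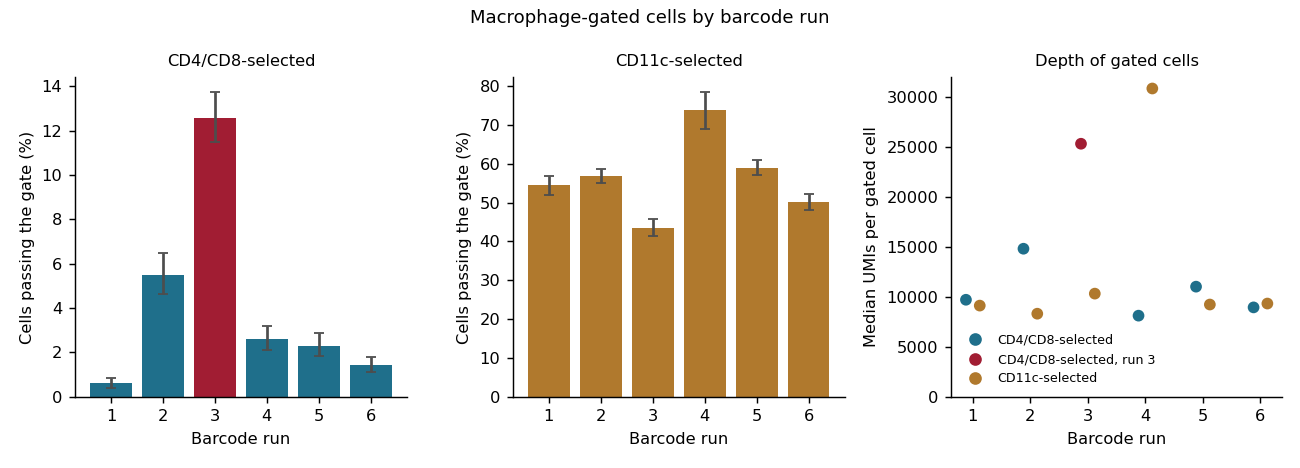
Bars give the percent of cells passing the macrophage gate in each barcode run of the CD4/CD8-selected (left) and CD11c-selected (middle) cells with exact 95% intervals, and points (right) give the median UMIs of the gated cells. Run 3 of the CD4/CD8-selected cells, in red, held 12.6% gated cells and stood above the other 5 runs in depth.

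Run 3 also stood apart in expression. Among 2592 genes with a median of at least 50 counts per 1000000 UMIs (CPM) over the CD4/CD8-selected runs, 294 lay at least 2-fold from the median of the other runs in run 3, against 30 to 39 in runs 2, 4, 5, and 6. Run 1, with 31 gated cells and few UMIs, had 233 such genes. The CD11c-selected runs had 6 to 45 of 2840. Comparisons of the selections are therefore given with and without run 3, or by run. Only 1 cell barcode was shared between the gated cells of the 2 selections.

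Macrophage genes that the gate did not use stood far above their level in T cells. The complement subunit gene *C1qb* stood at 4419 CPM in gated cells and 7.26 CPM in T cells of the same matrix, and *Adgre1* (the F4/80 antigen) at 372 and 0.436 CPM. The T cell receptor chain gene *Trbc2* was at 6.48 CPM in gated cells and 1772 CPM in T cells. Of 964 cells that met the *C1qa* and *Csf1r* thresholds, 137 (14.2%) were removed for *Cd3e* or *Cd8a*, and these had 240 CPM of *Trbc2*. Even so, 215 of the 827 gated cells (26.0%) had at least 1 UMI of *Cd3d*, *Cd3g*, *Trac*, *Trbc1*, *Trbc2*, or *Cd8b1*, against 1.04% of the CD11c-selected gated cells.

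Few CD4/CD8-selected cells lay at the *C1qa* edge of the gate, and more lay at the *Csf1r* edge. Just inside it, 4 cells had 3 *C1qa* UMIs and 58 (7.01%) had 1 *Csf1r* UMI. Just outside it, 10 cells had 2 *C1qa* UMIs and 96 had none of *Csf1r*, the latter at a median of 1320 UMIs. Of the CD11c-selected cells, 192 (3.06%) and 873 (13.9%) lay just inside these edges, and 232 and 937 just outside. The CD4/CD8-selected cells with 1 *Csf1r* UMI had 297 CPM of *Adgre1*, and those with none had 241 CPM.

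*Cd4* (GRCm38 chr6:124864692-124888221) was higher in the CD4/CD8-selected macrophages in every run. It stood at 115, 157, 26.1, 75.9, 102, and 37.7 CPM in runs 1 to 6. In the CD11c-selected runs it stood at 15.1, 11.5, 15.1, 6.48, 8.50, and 13.8 CPM. The 2 selections did not overlap, and run 3 was the lowest of the CD4/CD8-selected runs. Pooled, the level was 53.1 CPM (95% CI 49.6–56.8) against 11.5 CPM (10.8–12.3), a 4.61-fold difference (log2 ratio 2.20, 95% CI 2.07–2.34). Without run 3 it was 9.61-fold (log2 ratio 3.26, 3.11–3.42). All 6 CD4/CD8-selected runs lay above all 6 CD11c-selected runs for 31 of 2937 genes with a median of at least 50 CPM in either selection (1.06%), and *Cd4* had the largest ratio of medians among them.

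T cell RNA was about as frequent in macrophages with *Cd4* as in those without. T cell receptor or CD3 RNA was found in 68 of the 255 macrophages with a *Cd4* UMI (26.7%, 21.3%–32.5%) and in 147 of the 572 without (25.7%, 22.2%–29.5%). Without run 3 it was found in 43 of 152 (28.3%, 21.3%–36.2%) and in 76 of those with no *Cd4* (30.5%, 24.9%–36.7%). These shares were not thinned, and cells with *Cd4* were deeper. Median depths with and without *Cd4* were 19086 and 17118 UMIs over all runs. Without run 3 they were 15241 and 9540 UMIs, with *Trbc2* at 6.79 and 12.9 CPM. Macrophages with *Cd4* had 162 CPM of *Cd4* beside 7.31 CPM of *Trbc2*, whereas T cells with *Cd4* and no *Cd8a* had 338 CPM of *Cd4* beside 1340 CPM of *Trbc2*. Among the macrophages with *Cd4*, 168 had 2 or more UMIs of it and the highest count in a cell was 16. In the 612 macrophages with no T cell receptor or CD3 RNA, *Cd4* stood at 51.9 CPM.

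The share of cells with *Cd4* depended on depth. With each cell thinned at random to 2000 UMIs, 78 of 797 CD4/CD8-selected macrophages had a *Cd4* UMI (9.79%, 7.81%–12.1%), against 141 of 5749 CD11c-selected macrophages (2.45%, 2.07%–2.89%). Without run 3 the share was 15.5% (12%–19.5%). In T cells with *Cd8a*, which should lack *Cd4*, it was 0.747% (0.601%–0.918%). Before thinning the shares were 30.8%, 7.16%, and 1.67%, at median depths of 17520, 9376, and 4978 UMIs. Cells below 2000 UMIs, which were left out, numbered 30 of the CD4/CD8-selected and 520 of the CD11c-selected macrophages.

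*Itgax* (chr7:128129547-128150657), which encodes the antigen of the CD11c beads, overlapped between the selections. It stood at 273, 256, 124, 177, 222, and 156 CPM in the CD4/CD8-selected runs and at 180, 281, 209, 173, 267, and 305 CPM in the CD11c-selected runs. Run 3 was again the lowest. The pooled levels were 155 and 246 CPM (log2 ratio -0.67, -0.73 to -0.61), and without run 3 the ratio was -0.16 (-0.25 to -0.07). After thinning, 22.2% (19.4%–25.3%) of the CD4/CD8-selected macrophages had an *Itgax* UMI, 24.9% (20.7%–29.6%) without run 3, and 32.9% (31.6%–34.1%) of the CD11c-selected macrophages. The share in T cells with *Cd8a* was 1.69%. *Itgax* RNA was thus present in macrophages that had not been selected for CD11c.

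*Ccr2* (chr9:124101950-124113557), the receptor through which monocytes enter tissue, was lower in the CD4/CD8-selected macrophages, most of all in run 3. It stood at 46.0, 103, 7.67, 112, 57.1, and 204 CPM in their 6 runs and at 402, 167, 267, 262, 166, and 195 CPM in the CD11c-selected runs. Of the CD4/CD8-selected runs, 5 of 6 lay below all CD11c-selected runs, and run 6 lay within them. Pooled, *Ccr2* was 5.77-fold lower (log2 ratio -2.53, -2.65 to -2.41), and without run 3 it was 2.12-fold lower (-1.09, -1.21 to -0.96). After thinning, 7.53% (5.79%–9.58%) of the CD4/CD8-selected macrophages had a *Ccr2* UMI, 13.4% (10.1%–17.2%) without run 3, and 26.1% of the CD11c-selected macrophages. T cells with *Cd8a*, some of which also make *Ccr2*, had a share of 7.13%.

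*Lyve1* (chr7:110850607-110863239), a hyaluronan receptor of perivascular macrophages, varied more between runs than between selections. It stood at 6.57, 60.9, 4.34, 19.5, 9.34, and 53.0 CPM in the CD4/CD8-selected runs and at 40.3, 19.1, 14.9, 93.2, 14.6, and 21.4 CPM in the CD11c-selected runs. The ranges overlapped, and the sign of the pooled log2 ratio depended on run 3, being -0.99 (-1.18 to -0.79) with it and 0.35 (0.13–0.56) without it. After thinning, *Lyve1* was seen in 20 of 797 CD4/CD8-selected macrophages (2.51%, 1.54%–3.85%), 4.46% (2.62%–7.05%) without run 3, and in 3.67% (3.20%–4.19%) of the CD11c-selected macrophages, intervals that overlap.

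*Gpnmb* (chr6:49036546-49070929), a glycoprotein of lysosome-rich, lipid-associated macrophages, was at 0, 605, 588, 228, 298, and 796 CPM in the CD4/CD8-selected runs. The CD11c-selected runs were at 239, 174, 254, 248, 521, and 368 CPM. The runs overlapped (log2 ratio 0.78, 0.75–0.82, and 0.53 without run 3), and run 3 did not stand apart in level. It did in the share of cells: after thinning, 217 of 416 run 3 macrophages had a *Gpnmb* UMI (52.2%, 47.2%–57.1%), against 10.5% (7.61%–14.0%) in the other 5 runs and 7.32% in the CD11c-selected macrophages. The levels are of summed UMIs, in which deep cells weigh more, whereas the shares count each cell once at equal depth. Whether a like level was held by fewer cells in the other runs was therefore not tested.

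**Figure D2:**
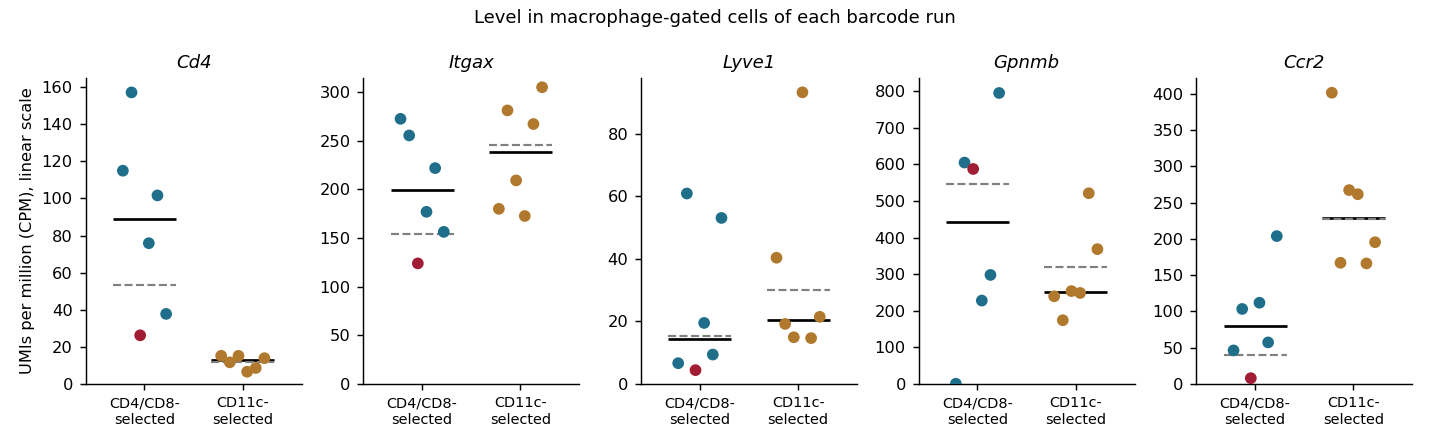
Each point is the level of a gene, in CPM on a linear scale from 0, in the macrophage-gated cells of 1 barcode run of CD4/CD8-selected (blue, run 3 in red) or CD11c-selected (brown) cells. The solid line is the median of the 6 runs and the dashed line the pooled level. Only *Cd4* has no overlap between the selections, from 26.1 to 157 against 6.48 to 15.1.

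In the other 5 runs these genes overlapped in part. Of the 381 macrophages thinned to 2000 UMIs, 17 had *Lyve1*, and 94.1% of these had *Folr2* (a folate receptor of resident macrophages), 88.2% *Mrc1* (the mannose receptor), and 52.9% the lectin gene *Cd209f*, against 22.3%, 40.4%, and 11% of those without *Lyve1*. None of the 17 had *Itgax* or *Gpnmb*, and 4 had *Ccr2* (23.5%, against 12.9% of those without *Lyve1*). The 40 cells with *Gpnmb* had *Spp1* (osteopontin) in 92.5% and the MHC class II gene *H2-Aa* in 20%, against 8.80% and 91.8% of the cells without *Gpnmb*, and *Itgax* in 27.5% against 24.6%. The 59 cells with *Cd4* had *Itgax* in 42.4% and *Mrc1* in 22%, against 21.7% and 46.3% of those without *Cd4*. *Ccr2* was found in 1 of these 59 cells (1.69%). The cells with *Ccr2* numbered 51, of which 70.6% had *Mrc1* and 7.84% *Itgax*. These shares describe cells pooled over 5 runs.

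Without run 3, *Cd209f* stood at 172.5 CPM (161–184) in the CD4/CD8-selected macrophages and 52.3 CPM in the CD11c-selected ones, and the hemoglobin scavenger receptor gene *Cd163* at 69.3 and 28.0 CPM. Run ranges overlapped for both, at 122 to 205 against 20.7 to 193 CPM for *Cd209f* and at 42.8 to 99.2 against 13.1 to 80.6 CPM for *Cd163*. In run 3 they stood at 5.73 and 5.54 CPM. CD11c-selected run 4 gave the highest level of that selection for both, as it did for *Lyve1*.

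**Figure D3:**
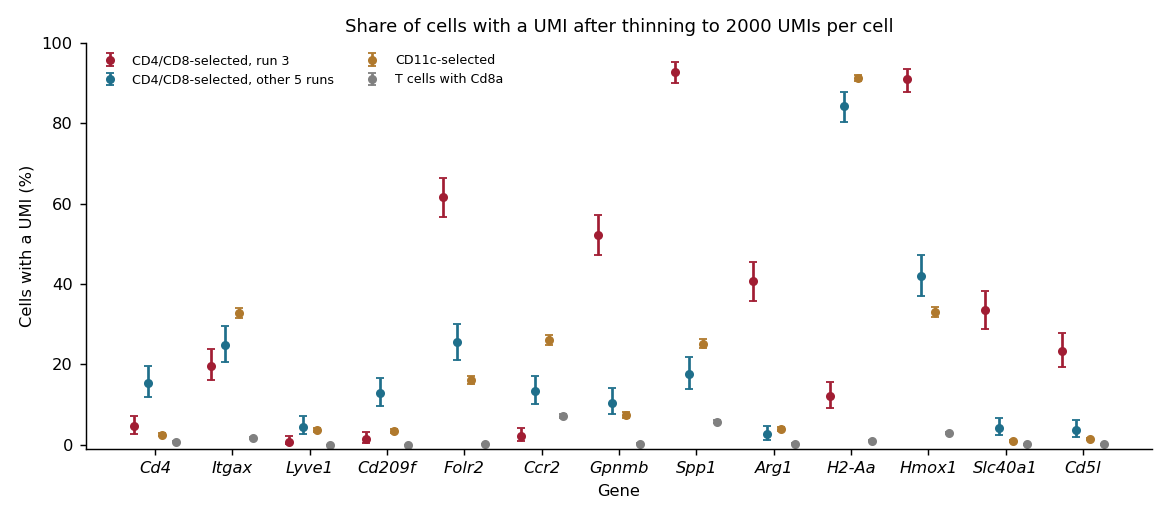
Points give the percent of cells with at least 1 UMI of each gene after every cell was thinned to 2000 UMIs, with exact 95% intervals, in run 3 (red) and the other 5 runs (blue) of the CD4/CD8-selected macrophages, the CD11c-selected macrophages (brown), and T cells with *Cd8a* (gray). *H2-Aa* is at 12% in run 3, where *Hmox1* reaches 90.9% and *Spp1* 92.8%.

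The run 3 macrophages had little RNA for MHC class II, the complex that presents antigen to CD4 T cells. *H2-Aa* stood at 313 CPM in run 3, at 6722 to 13590 CPM in the other 5 CD4/CD8-selected runs, and at 5616 to 8520 CPM in the CD11c-selected runs. The β chain gene *H2-Ab1* (chr17:34257689-34269419) stood at 322 CPM in run 3 and at 6688 to 15197 CPM in the other 5 runs. *H2-Eb1* was at 256 against 6222 to 14819 CPM, and *Cd74*, the invariant chain, at 556 against 11697 to 29881 CPM. Run 3 lay far below every other run of either selection for all 4 genes. Relative to the other 5 runs, *H2-Ab1* was 24.4-fold lower (log2 ratio -4.61, -4.66 to -4.56). Their shared regulator *Ciita* was 12.5-fold lower (1.85 against 13.1 to 28.2 CPM) and the peptide loading gene *H2-DMa* 6.52-fold lower (72.2 against 409 to 706 CPM).

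Of 13 genes of MHC class II presentation, 12 were at least 2-fold lower in run 3 than in the other 5 runs pooled (median log2 ratio -2.71), beside 8.32% of all 10921 genes (median -0.07). All 8 of them with at least 50 CPM in run 3 or in the median of the other runs lay below every other CD4/CD8-selected run, as did 31.7% of all 2905 such genes. The comparison with the CD11c-selected macrophages differed with and without run 3. With run 3 included, 11 of the 13 genes were at least 2-fold lower in the CD4/CD8-selected macrophages, and without it 1 of 13, with medians of -1.36 and 0.05. The background was 9.75% of 13548 genes with run 3 and 5.63% of 13366 without it.

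The promoters of *H2-Aa* and *H2-Eb1* are shown because these genes were low together in run 3. Of 3 class II genes looked for, these 2 had a promoter window. *H2-Ab1*, also low in run 3, had none among the windows used. Class II promoters carry a CCAAT motif in reverse, known as the Y box, which nuclear factor Y binds. The 150 bases before the start of each gene hold CTGATTGG, given in capitals, 51 and 62 bases upstream. Of 32851 promoter windows of the same length, 3.16% hold these letters on either strand. Sequences are from RefSeq on GRCm38.p6, chr17:34287824-34287973 (minus strand) and chr17:34305717-34305866 (plus strand), each 5′ to 3′. No overlapping motif was searched.
H2-Aa: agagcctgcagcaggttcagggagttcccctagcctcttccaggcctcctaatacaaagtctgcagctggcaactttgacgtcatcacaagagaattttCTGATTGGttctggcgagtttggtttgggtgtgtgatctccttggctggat
H2-Eb1: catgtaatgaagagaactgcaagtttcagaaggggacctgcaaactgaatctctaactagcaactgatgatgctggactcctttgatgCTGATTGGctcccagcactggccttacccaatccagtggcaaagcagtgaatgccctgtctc

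Most run 3 cells had a low MHC class II share. The 4 genes *H2-Aa*, *H2-Ab1*, *H2-Eb1*, and *Cd74* made up a median of 0.00633% of the UMIs of a run 3 macrophage, against 3.95% in the other 5 runs and 3.59% in the CD11c-selected macrophages. Cells with less than 0.2% of their UMIs in these genes were 382 of 426 in run 3 (89.7%, 86.4%–92.4%). They were 15.0% (11.6%–18.8%) of the macrophages of the other 5 runs, where single runs ranged from 0 of 31 to 21.7%, and 9.08% (8.38%–9.82%) of the CD11c-selected macrophages. This limit was set after the values were seen, and 44 of the 827 cells had between 0.1% and 0.4%.

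Most of these cells also carried RNA for heme breakdown. *Hmox1* (chr8:75093621-75100589), which encodes heme oxygenase 1, stood at 7564 CPM in run 3, at 452 to 955 CPM in the other 5 runs, and at 373 to 704 CPM in the CD11c-selected runs. Relative to the other 5 runs it was 13-fold higher (log2 ratio 3.70, 3.65–3.75). Without run 3, *Hmox1* in the 2 selections was at 582 and 527 CPM (log2 ratio 0.14, 0.09–0.20). Of the run 3 macrophages, 329 (77.2%) had both less than 0.2% of UMIs in MHC class II genes and at least 0.2% in *Hmox1*. In the other 5 runs 2.74% of macrophages had both, and among the CD11c-selected ones 1.87%.

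**Figure D4:**
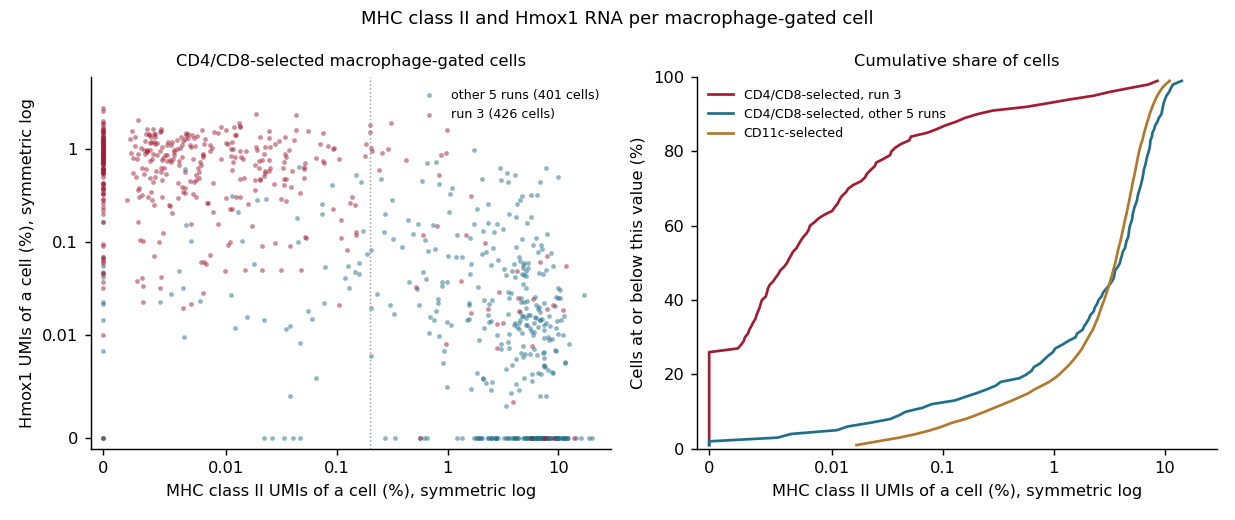
Left, each point is a CD4/CD8-selected macrophage, placed by the percent of its UMIs from 4 MHC class II genes and from *Hmox1* (symmetric log axes, dotted line at 0.2%); run 3 is red and the other 5 runs blue. Right, the cumulative percent of cells by MHC class II percent, with the CD11c-selected macrophages in brown. Run 3 cells gather at low MHC class II and high *Hmox1*, and 89.7% of them lie below 0.2%.

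Genes for iron handling were high beside *Hmox1* in run 3. *Slc40a1*, the iron exporter ferroportin, stood at 261 CPM in run 3 and 6.57 to 44.3 CPM in the other 5 runs. The heme transporter gene *Slc48a1* was at 421 against 49.3 to 90.7 CPM. The ferritin chain genes *Ftl1* (27652 against 10692 to 13759 CPM) and *Fth1* (43898 against 17067 to 25932 CPM) were also above all other runs. Of 15 heme and iron genes, a list set after values had been seen, 13 passed the count minimum. Of these, 4 were at least 2-fold higher in run 3, 1 (*Cd163*) was at least 2-fold lower, beside 6.02% and 8.32% of all genes. Without run 3, *Slc40a1* remained 3.96-fold higher in the CD4/CD8-selected than in the CD11c-selected macrophages (log2 ratio 1.99, 1.72–2.25), with run ranges that overlap (6.57 to 44.3 against 3.61 to 19.7 CPM).

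Genes of glutathione synthesis and of the NRF2 response to oxidants were also high in run 3. The aldo-keto reductase gene *Akr1b8* was at 232 CPM in run 3 and at 0 to 14.5 CPM in the other 5 runs, and *Gclm*, a subunit of the enzyme that limits glutathione synthesis, at 414 against 23.0 to 64.3 CPM. Of 15 such genes, again listed after values had been seen, 10 were at least 2-fold higher in run 3 (median log2 ratio 1.45) and none was at least 2-fold lower, beside 6.02% and 8.32% of all genes. Between the selections 9 of 15 were at least 2-fold higher pooled, beside 5.37% of all genes, and 3 of 15 without run 3, beside 5.9%. Neither *Akr1b8* (log2 ratio 0.04, -0.45 to 0.49) nor *Gclm* (0.21, 0.02–0.39) differed by 2-fold between the selections once run 3 was left out.

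Lipid-associated genes followed the same split. *Spp1* stood at 12614 CPM in run 3, at 381 to 5964 CPM in the other 5 runs, and at 1463 to 7199 CPM in the CD11c-selected runs. *Arg1*, encoding arginase 1, was at 793 against 0 to 75.9 CPM in the other 5 runs. The fibronectin gene *Fn1*, counted among the monocyte markers below, was at 1903 against 13.1 to 447 CPM. The lysosomal protease gene *Ctsd* was at 13642 against 2129 to 6422 CPM. Of 19 lipid-associated genes, 12 were at least 2-fold higher in run 3 than in the other 5 runs and none lower, with a median log2 ratio of 1.23, beside 6.02% and 8.32% of all genes. Pooled against the CD11c-selected macrophages, 9 of 19 were at least 2-fold higher and 1 lower, beside 5.37% and 9.75% of all genes. Without run 3, none was higher and 1 lower, beside 5.9% and 5.63%. *Arg1* and *Fn1* changed sign when run 3 was left out, from 2.28 to -1.08 and from 1.29 to -1.13 (log2 ratio).

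Some genes known from macrophages of liver, spleen, and body cavities were high in run 3. Of 12 such genes, listed after values had been seen, 8 passed the count minimum, of which 5 were at least 2-fold higher in run 3 than in the other 5 runs and 2 at least 2-fold lower, beside 6.02% and 8.32% of all genes. The lower ones were *Vcam1*, an adhesion molecule gene (180 against 190 to 470 CPM), and *Timd4*, a receptor gene for dying cells (1.66 against 0 to 8.75 CPM). *Cd5l*, a secreted apoptosis inhibitor, stood at 629 CPM in run 3, at 0 to 309 CPM in the other 5 runs, and at 2.29 to 76.3 CPM in the CD11c-selected runs. *Vsig4*, a complement receptor, was at 93.1 CPM in run 3, at 0 to 22.4 CPM in the other 5 runs, and at 0.438 to 6.78 CPM in the CD11c-selected runs. The scavenger receptor gene *Marco* was at 28.9 against 0 to 2.07 CPM, and after thinning 17 of 416 run 3 cells (4.09%, 2.40%–6.46%) had a UMI of it. *Clec4f*, the defining gene of liver Kupffer cells, and *Car4* had no UMI in any of the 827 cells, which limits only the share of cells with a UMI, to 0.363%. *Folr2* (573 against 75.6 to 275 CPM) and *Pf4* (1833 against 263 to 752 CPM), which mark resident macrophages, were also above the other runs in run 3, whereas *Lyve1*, *Cd163*, and *Cd209f* were below all of them. Of 18 listed resident-like macrophage genes, 4 were at least 2-fold higher in run 3 and 8 lower (median log2 ratio -0.77), beside 6.02% and 8.32% of all genes. Between the selections 4 were higher and none lower, beside 5.37% and 9.75% of all genes. Without run 3 these counts were the same, beside 5.9% and 5.63%.

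Over all genes, 786 of 2905 (27.1%) were above every other CD4/CD8-selected run in run 3 and 920 (31.7%) below. Genes low in run 3 included *Mgl2*, a lectin of dermal macrophages and DCs (4.62 against 46.0 to 262 CPM), and *Csf1r* itself (277 against 560 to 840 CPM). The background of macrophage RNA in T cells differed between runs as well: the summed level of the 12 macrophage markers was 984 CPM in run 3 T cells and 33 to 92.2 CPM in T cells of the other runs, which by definition had no *C1qa* or *Csf1r*. In the macrophages themselves that sum, which includes the gate genes *C1qa* and *Csf1r*, was 92297 CPM in run 3 and 65854 to 75616.5 CPM in the other runs. *Apoe* and *Lyz2* made up much of it, at 42801 and 25642 CPM over all gated cells. Of the 12 markers, 3 were above every other CD4/CD8-selected run in run 3 and 6 below, beside 27.1% and 31.7% of all genes. Mammary epithelial markers summed to 62.2 CPM in run 3 and 42.7 to 1424 CPM in the other runs. The part of depth, free RNA, and RNA of other cells in the run 3 differences was not tested. In the alternative with the gate set on thinned counts, *H2-Ab1* remained lower in run 3 by a log2 ratio of -4.23 and *Hmox1* higher by 3.69.

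**Figure D5:**
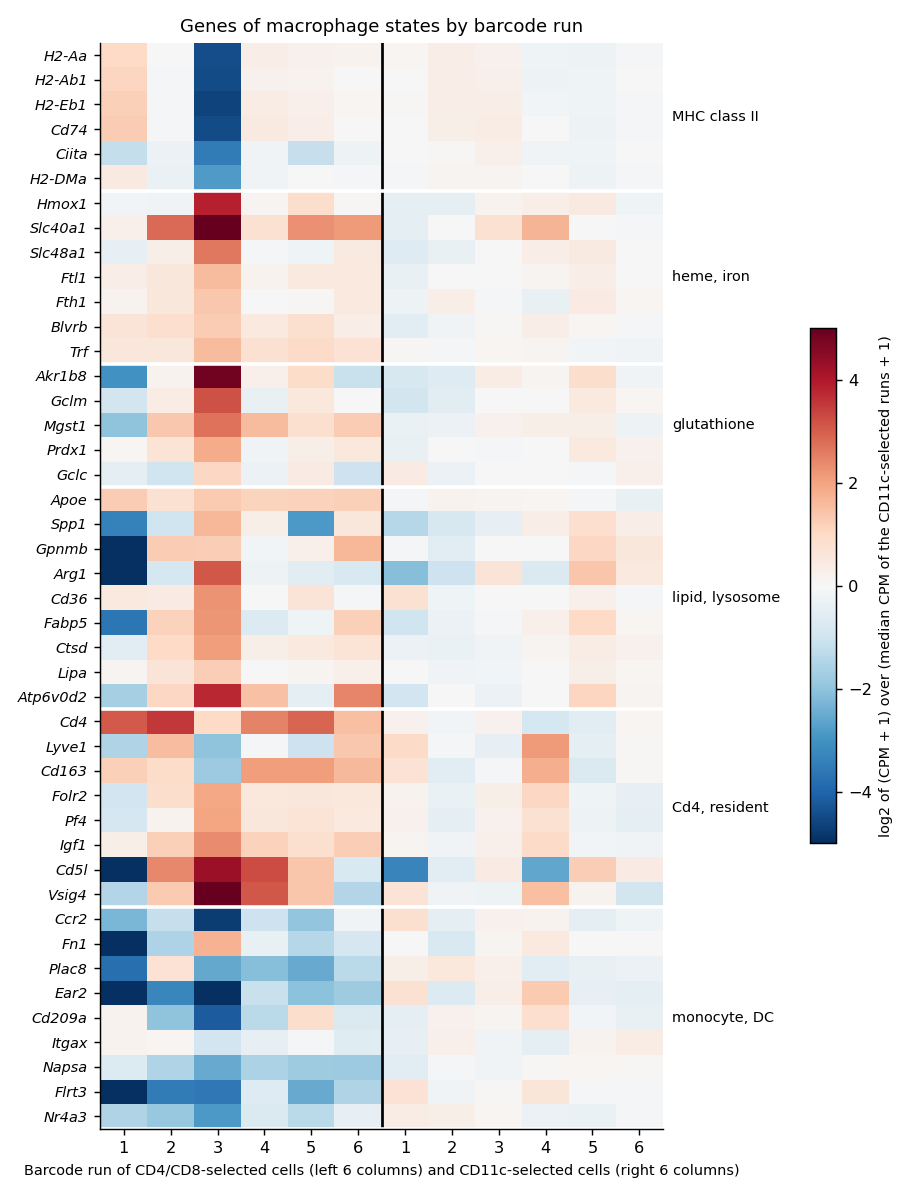
Colors give the log2 of (CPM + 1) over (the median CPM of the 6 CD11c-selected runs + 1), cut at -5 and 5, for genes of MHC class II, heme and iron, glutathione, lipid and lysosome, resident, and monocyte or DC groups, in the macrophage-gated cells of each barcode run. Run 3 of the CD4/CD8-selected cells has the lowest MHC class II values and the highest *Hmox1* and *Slc40a1* values, *Apoe* and *Cd4* are above the CD11c-selected runs in all 6 runs, and deep blue in run 1 mostly marks genes with no UMI in its 31 cells.

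Some differences between the selections did not depend on run 3. After *Cd4*, the apolipoprotein E gene *Apoe* (chr7:19696109-19699188) had the largest ratio of medians, at 31431 to 45342 CPM in the CD4/CD8-selected runs against 14314 to 20842 CPM in the CD11c-selected runs. The log2 ratio was 1.24 pooled and 1.04 without run 3. *Trf* (transferrin) followed at 552 to 1120 against 327 to 412 CPM, then *Hebp1*, a heme-binding protein gene, at 87.5 to 192 against 57.5 to 85.0 CPM, and *Cd63*, a lysosomal tetraspanin gene, at 1596 to 2533 against 1044 to 1428 CPM. The gate gene *C1qa* (5405 to 6847 against 3536 to 4293 CPM) and its partner *C1qc* (3132 to 3926 against 2284 to 2730 CPM) were also higher in every run. The level of *C1qa* partly describes the gate. With run 3 left out, 46 of 2946 genes (1.56%) were above and 304 (10.3%) below.

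Lower in all 6 runs were 259 of the 2937 genes (8.82%). The adhesion gene *Flrt3* stood at 0 to 40.8 against 57.3 to 106 CPM, the eosinophil-type ribonuclease gene *Ear2* at 0 to 44.7 against 60.5 to 242 CPM, and *Traf1*, an adaptor of tumor necrosis factor receptors, at 9.70 to 51.7 against 73.2 to 95.1 CPM. *Naaa*, encoding a lysosomal amidase, was at 28.6 to 134 against 153 to 281 CPM. *Napsa*, an aspartic protease gene of antigen-presenting cells, and *Nr4a3*, an immediate early nuclear receptor gene, were at 15.6 to 59.1 against 66.1 to 102 CPM and at 31.9 to 183 against 194 to 310 CPM. *Gm42418*, which overlaps a ribosomal RNA repeat, was at 2828 to 6450 against 11050 to 22825 CPM.

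The balance of higher and lower genes depended on scaling. The median log2 ratio of all genes was -0.17. With each run scaled by its median gene ratio in place of total UMIs, 90 genes were above and 76 below, in place of 31 and 259, the 90 held all 31, and the 76 were all among the 259. *Cd4*, *Apoe*, *Trf*, *Hebp1*, *Cd63*, *Flrt3*, *Ear2*, *Naaa*, and *Traf1* kept their calls, whereas *Napsa* and *Nr4a3* did not.

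DC markers were lower in the CD4/CD8-selected macrophages, and monocyte genes were mixed. Of 9 markers of conventional DCs, 9 were at least 2-fold lower pooled, beside 9.75% of all genes, and 8 without run 3, beside 5.63%. The chemokine receptor gene *Ccr7* of migrating DCs stood at 0 to 4.19 CPM against 14.3 to 58.8 CPM in the CD11c-selected runs. Summed, these 9 markers were at 5.64 CPM in run 3, 17.0 to 62.2 CPM in the other 5 runs, and 64.8 to 149 CPM in the CD11c-selected runs. Of 16 monocyte-derived genes, 9 were at least 2-fold lower and 1 higher pooled, and 4 lower and 1 higher without run 3. Of 9 monocyte markers, 4 were at least 2-fold lower and 1 higher pooled, and 3 lower and 1 higher without run 3. The shares of all genes beside both sets of counts were 9.75% lower and 5.37% higher pooled, and 5.63% and 5.9% without run 3. The summed level of the monocyte markers was 1669 CPM pooled against 1171 CPM in the CD11c-selected macrophages. The ranges of summed levels overlapped for the monocyte markers, at 177 to 2092 and 828 to 1721 CPM. The 2092 CPM was that of run 3, where *Fn1* alone stood at 1903 CPM. In the other 5 runs the markers summed to 177 to 1043 CPM. The marker higher pooled was *Fn1* (log2 ratio 1.29), which was lower without run 3 (-1.13), so the marker higher without run 3 was a different one. The ranges for the monocyte-derived genes also overlapped, at 237 to 3916 CPM in the CD4/CD8-selected and 3120 to 6390 CPM in the CD11c-selected runs. *Retnla*, a gene of alternatively activated macrophages, was at 0 to 1836 against 839 to 2821 CPM.

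Other groups differed in fewer genes or with run 3. The shares of all genes beside these counts were 6.02% higher and 8.32% lower for run 3, 9.75% lower between the selections, and 5.63% lower without run 3. Of 16 glycolysis and hypoxia genes, 7 were at least 2-fold higher in run 3 than in the other 5 runs and none lower, and none of 16 differed by 2-fold between the selections without run 3. Of 17 heat shock and immediate early genes, 9 were at least 2-fold lower in run 3, and without run 3 none of 17 differed by 2-fold between the selections. Of 15 cell cycle genes, 1 was at least 2-fold lower pooled and 2 without run 3, and of 20 interferon-induced genes 1 and 2, with none higher. Of 7 Fc receptor genes, none differed by 2-fold between the selections with or without run 3. Of 18 measured coagulation and PAR genes, 7 were at least 2-fold lower pooled and 6 without run 3. Among them the coagulation factor gene *F10* was at 11.8 CPM against 33 CPM (log2 ratio -1.49 pooled, -1.5 without run 3), with run ranges of 0 to 23.3 and 21.4 to 46.5 CPM that overlap.

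RNA of other cell types was low in the CD4/CD8-selected macrophages but not the same as in the comparison. T cell markers, 13 genes with *Cd3e* and *Cd8a* at 0 by the gate, summed to 21.1 CPM in run 3, 41.4 to 65.6 CPM in the other 5 runs, and 7.38 to 21.6 CPM in the CD11c-selected runs, against 8129 to 9788 CPM in T cells. The T cells were picked on *Cd3e*, a gene of this sum, so part of the contrast with them was set by the definitions. Fibroblast markers were at least 2-fold higher for 7 of 8 genes, beside 5.37% of all genes, and for 5 of 7 without run 3, beside 5.9% (*Col3a1* at 113 pooled and 72.6 without run 3, against 8.07 CPM). When the 5% of gated cells with the most UMIs were left out of each set, the log2 ratio of *Col3a1* turned from 3.81 to -1.74. B cell markers summed to 12.9 CPM in run 3, 92.0 to 150 CPM in the other 5 runs, and 97.4 to 149 CPM in the CD11c-selected runs. The part of these cells' RNA in the differences between the selections was not tested.

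In all, 728 of 13548 genes (5.37%) were at least 2-fold higher and 1321 (9.75%) at least 2-fold lower in the CD4/CD8-selected macrophages. Without run 3 there were 788 of 13366 (5.9%) and 753 (5.63%). Among genes measured in both, 306 of 641 higher genes (47.7%) and 428 of 1310 lower genes (32.7%) stayed 2-fold apart when run 3 was left out, and 89 and 220 changed direction.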

How the data were processed

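Single-cell RNA was measured on the 10x platform. For each bead selection 1 matrix of UMI counts was deposited. The submitters' processing notes name Cell Ranger 3.0.2 and mm10. Counts were read with Python 3.11.15, numpy 2.4.6, scipy 1.17.1, and pandas 2.3.3, and figures drawn with matplotlib 3.10.9. Barcodes with at least 200 detected genes were kept, 22806 of 23101 and 11639 of 11980. UMIs of gated cells were summed and given per 1000000 UMIs (CPM). Ratios carry conditional binomial, levels Poisson, and shares Clopper-Pearson 95% intervals. Ratios needed at least 20 UMIs over both sets, and a set at 0 was held at 3 counts. Comparisons between runs needed a median of at least 50 CPM. Cells were thinned to 2000 UMIs (seed 1). T cells were CD4/CD8-selected cells with at least 1 UMI of *Cd3e* and none of *C1qa* or *Csf1r*. No doublet caller was run. Symbols matched to GENCODE M21 numbered 30497 (98.2%).

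Genes were named by rule: the gate and bead genes, up to 4 per list by size of ratio, and the 12 largest and 12 smallest ratios. *Cd209f*, *Cd163*, *Trf*, *Hebp1*, *Cd63*, *Slc48a1*, *Fth1*, and others were chosen after their values were seen. The members and all lists were chosen with earlier results of these data known. The heme, glutathione, and other-tissue macrophage lists, the treatment of run 3, and the rule on all 6 runs were chosen after the data were seen. Alternatives changed the gate, depth, cell filter, summary, scaling, and runs. Scripts were tested on simulated data.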

Additional observations from a re-analysis of the deposited data

Results flagged for a closer look

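Among 18 quantities given per barcode run, 3 had 1 run farther from the rest than Dixon's 95% limit for 6 values, which chance passes in about 1 in 20 groups. *Hmox1* stood at 7564 CPM in run 3 of the CD4/CD8-selected macrophages, where the next run was at 955 CPM. The percent of CD4/CD8-selected macrophages with less than 0.2% of UMIs in MHC class II genes was 89.7 in run 3, where the next run was at 21.7. *Lyve1* stood at 93.2 CPM in run 4 of the CD11c-selected macrophages, where the next run was at 40.3 CPM. The limit for MHC class II and the choice of *Hmox1* were made after the values were seen.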

How the results depend on the processing

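The gated share of CD4/CD8-selected cells, 3.63%, was 3.35% with at least 5 *C1qa* and 2 *Csf1r* UMIs, 2.52% with the gate on thinned counts, 3.88% with at least 500 genes, and 2.68% without cells holding T cell RNA. With medians over runs in place of pooled sums, the log2 ratios between selections were 2.81 for *Cd4*, -0.26 for *Itgax*, -0.49 for *Lyve1*, 0.82 for *Gpnmb*, and -1.51 for *Ccr2*. With the mean of per-cell CPM they were -0.20 for *Lyve1*, 1.54 for *Gpnmb*, and -1.86 for *Ccr2*. With the thinned gate they were -0.63, 1.39, and -1.91, and without the top 5% of UMIs -0.79, 1.24, and -2.40. *Gpnmb* was at 0.72 with the stricter gate and 0.69 without cells holding DC RNA. Without the top 5%, 4 fibroblast genes turned sign, *Col3a1* to -1.74, *Dcn* to -0.62, *Col1a2* to -1.85, and *Col1a1* to -3.53. Genes at least 2-fold higher were 380 with at least 100 UMIs and 1717 with no minimum, and lower ones 747 with at least 100 UMIs and 698 with the thinned gate. Genes apart in all 6 runs were 17 above and 109 below with the thinned gate, and 90 and 76 with scaling. In run 3, *H2-Ab1* was at -4.23 with the thinned gate, -4.51 without T cell RNA, -4.83 without DC RNA, and -4.47 without the top 5%. *Hmox1* was at 3.93 without T cell RNA and 3.76 without the top 5%. The causes were not tested.

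With each run left out in turn, the gated share was 2.07% to 4.51%, and log2 ratios were 1.71 to 3.26 for *Cd4*, -0.82 to -0.16 for *Itgax*, -1.84 to 0.35 for *Lyve1*, 0.53 to 1.09 for *Gpnmb*, and -2.93 to -1.09 for *Ccr2*. Counts were 676 to 788 higher and 753 to 1503 lower, 32 to 52 above and 258 to 323 below, and 624 to 903 and 803 to 911 for run 3. In run 3, *H2-Ab1* was at -4.75 to -4.52 and *Hmox1* at 3.50 to 3.94. Without run 3 the sign turned for *Arg1* (-1.08 to 2.82), *Fn1* (-1.13 to 1.47), *Cspg4* (-0.26 to 2.87), *Rnf128* (-0.067 to 2.73), *S100a8* (-0.021 to 2.79), *Msr1* (-0.10 to 1.64), and *H2-Ab1* between selections (-1.77 to 0.11). Of 69 named genes at least 2-fold apart, 62 kept their sign and 25 stayed 2-fold apart without run 3, and at least 65 kept their sign under each other setting. No paired analysis was possible because the matrices do not link cells to samples. Depth limits run 1 most, with 304345 UMIs.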
